A study of Homo sapiens with 6 samples.

Results

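Interferon-stimulated genes were examined in K562 cells, a long-established line of human leukemia cells that express erythroid genes, after induction of either isoform of the transcription factor C/EBPα. The genes were taken by name: ISG15, IFI6, IFI35, IFIT1, IFIT2, IFIT3, IFITM1, IRF7 and IRF9. All 9 had a row in the deposited tables, which hold 17066 gene symbols in all. In the pooled values IFIT1 was higher and IFI6 lower by more than 2-fold in cells with wild type C/EBPα. ISG15 was lower there by nearly as much. Against the control cells, 14.0% of all genes compared were 2-fold higher in these cells and 6.92% were lower. IFIT1 could be compared with the control only through its level in these cells, so it had to be higher there. In cells with the p30 isoform, none of the 7 members that could be compared reached 2-fold on the main scale against the control cells. Of all genes, 1.02% were 2-fold higher there and 0.613% were lower.

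RNA-seq was carried out on 6 samples, 2 each of CTR, CEBPA and P30 cells. Each of the 3 K562 lines carries a stably inserted PiggyBac transposon with a doxycycline-inducible cassette, which is empty in CTR cells, encodes wild type C/EBPα in CEBPA cells and encodes in P30 cells p30, an N-terminally truncated form of the protein. All cells, controls included, received 200 ng/ml doxycycline for 48 h, and none of the samples was without the drug, so that an effect of the transgene cannot be told apart from other differences between the lines. The authors deposited 1 FPKM per gene and group, that is, fragments scaled by the length of the transcript and by the total of mapped fragments, with the replicates of a group pooled.

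Pooling leaves no spread between replicates, and the depth behind each value is unknown from FPKM. All comparisons below are therefore descriptions of pooled values, with no error, no p-value and no replicate check. It is likewise not known which neighbours in an order of levels differ beyond their spread. Differences are given as log2(FPKM + 1) of the first group minus that of the second, a scale that understates the change of genes with low FPKM. They were computed for genes that exceeded 1 FPKM in either group of the pair, and a gene is counted as higher or lower from a 2-fold difference on this scale, that is, a log2 difference of 1.

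Interferons are cytokines that cells release on viral infection. Type I interferon binds a receptor whose kinases JAK1 and TYK2 phosphorylate STAT proteins, and these join IRF9 to form a complex that binds the interferon-stimulated response element (ISRE) in target promoters. Interferon-gamma acts mainly at the gamma-activated site (GAS). The target genes encode antiviral effectors and also parts of the pathway itself, among them IRF7, IRF9 and STAT2, and many of them are transcribed at a low level without added interferon.

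The members lie on 5 chromosomes in GRCh37 (hg19), which the authors aligned to, with positions from a Gencode release later than theirs. IFIT2, IFIT3 and IFIT1 are neighbours on the plus strand of chromosome 10, within 123 kb from position 91043451 to 91166244. IFITM1 (310041 to 315272) and IRF7 (612553 to 615983, minus strand) are on chromosome 11. ISG15 (936518 to 949920) and IFI6 (27992575 to 27998723, minus strand) are on chromosome 1, IRF9 (24630443 to 24637252) is on chromosome 14 and IFI35 (41158757 to 41166473) is on chromosome 17. The 3 IFIT genes lie inside the span of LIPA, a lysosomal lipase gene on the opposite strand, and the alignment is stated to have used default settings, so it is not given whether reads were assigned by strand. LIPA itself was low, at 0.348 FPKM in CTR, at 0.152 in P30 and at 0.241 in CEBPA. On the same strand, all of IFITM1 and parts of IFI6, IRF9, IFIT2 and IFIT3 are overlapped by other annotated genes, and IFITM1 has close relatives, IFITM2 and IFITM3, that share similar sequence. Their levels are uncertain to the extent that reads could be shared.

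Promoter sequences from RefSeq, 250 bases before to 50 after the annotated start, (from a table of build GRCh38.p14) were found for 7 of the 9 members, all but IFIT2 and IRF7, as 8 promoters because IFIT3 has 2. Each of the 8 matched GRCh37 exactly at 1 place. The ISRE was searched on both strands as GAAA, any 2 bases and GAAA again (TTTC, any 2 bases and TTTC on the other strand), and 5 of the 7 members held it: ISG15, IFI6, IFIT1, IFIT3 and IFITM1. Of all 35116 promoters of this length in the table, 3.57% held it. The GAS motif TTCNNNGAA was found in IFITM1, IRF9 and IFI35, and in 7.66% of all promoters. The C/EBP motif TTNNGCAA, present in 10.5% of all promoters, was in none of the 8, which says only that these letters are not in these windows.

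Of the members with ISRE matches, IFITM1 is not shown, and 1 of its matches runs from -6 to 4 across the annotated start. The upstream windows of the other 4 are shown, because the members that differed most in opposite directions, IFIT1 and IFI6, both hold this motif. Each is written 5′ to 3′ on the strand of the gene, with the ISRE matches in capitals. The matches of ISG15 overlap each other, and IFIT3 is shown by 1 of its 2 promoters.
IFIT1, chr10:91152230-91152299, plus strand: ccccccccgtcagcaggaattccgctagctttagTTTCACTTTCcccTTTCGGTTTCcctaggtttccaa
IFIT3, chr10:91087584-91087694, plus strand: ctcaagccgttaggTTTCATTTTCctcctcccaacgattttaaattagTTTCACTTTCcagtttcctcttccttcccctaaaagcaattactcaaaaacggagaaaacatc
ISG15, chr1:948727-948846, plus strand: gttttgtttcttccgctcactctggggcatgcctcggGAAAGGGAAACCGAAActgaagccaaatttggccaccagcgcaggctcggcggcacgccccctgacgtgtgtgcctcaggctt
IFI6, chr1:27998754-27998873, minus strand: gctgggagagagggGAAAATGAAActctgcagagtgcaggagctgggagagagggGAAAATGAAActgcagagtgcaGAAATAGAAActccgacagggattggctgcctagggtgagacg

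**Figure D1:**
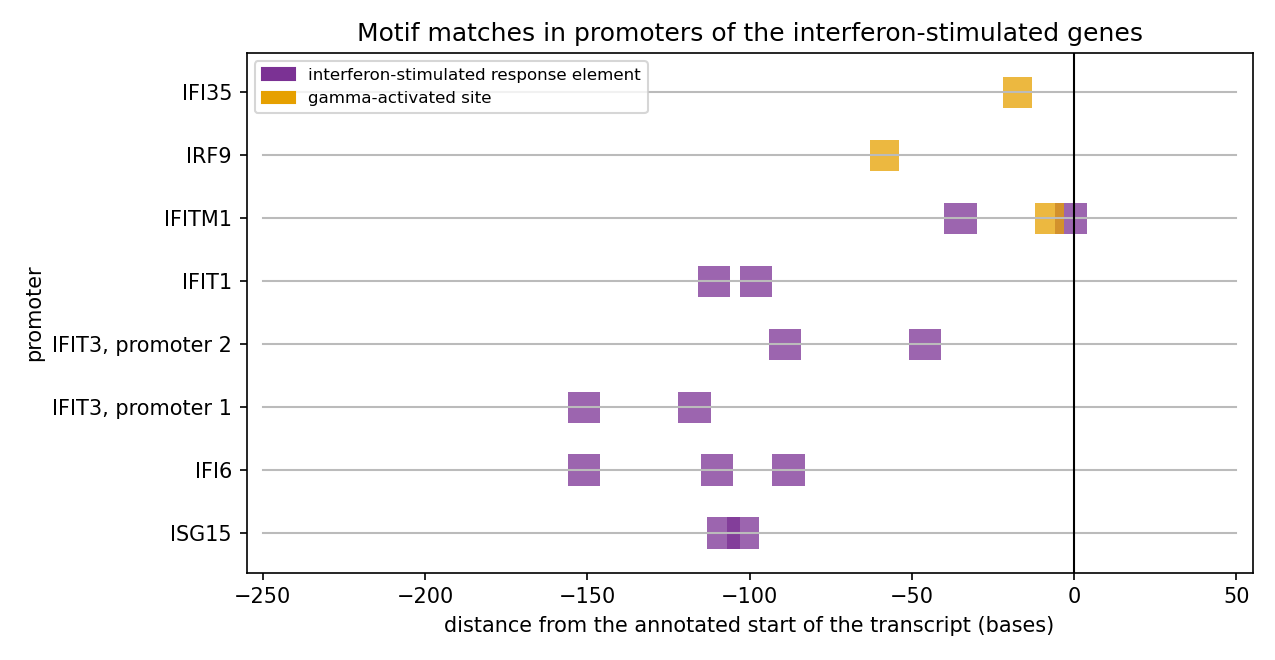
Positions of ISRE and GAS matches in the 8 promoters, as distance in bases from the annotated start (vertical line). The 2 matches of IFIT1 and the overlapping pair of ISG15 lie between -116 and -94, IFI6 holds 3, and IRF9 and IFI35 hold a GAS match only.

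FPKM, being per length, could be compared between genes. In CTR cells the members spanned a wide range, from IFITM1 with 466 FPKM, in place 168 of 17025 symbols, to IFIT2 with 0.0654 FPKM. Below IFITM1 came IRF9, IFI6, IFI35, ISG15 and IRF7, all between 9.11 and 29.6 FPKM, and the 3 IFIT genes were all under 1 FPKM. The first 6 places of this order were held by the same 6 genes in each group, and the IFIT genes took the last 3 places. Within the order, IFI35 was in place 4 in CTR and in place 2 in CEBPA cells.

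**Figure D2:**
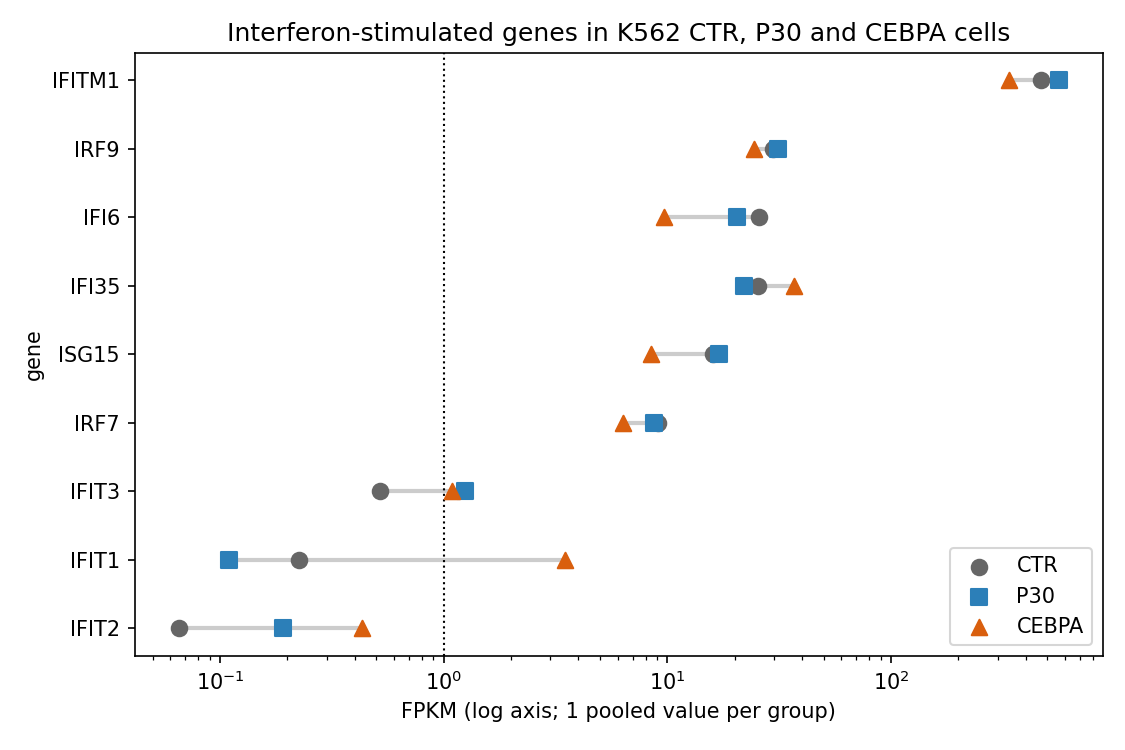
FPKM of the 9 members on a log axis, 1 pooled value for each of CTR (circles), P30 (squares) and CEBPA (triangles), with a dotted line at 1 FPKM. CTR and P30 lie close together for the 6 genes over 5 FPKM, while CEBPA is lowest for IFITM1, IRF9, IFI6, ISG15 and IRF7 and highest for IFI35, IFIT1 and IFIT2.

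Among the transcription factors, IRF9, the DNA-binding subunit of the ISRE-binding complex, stood at 29.6 FPKM in CTR cells, 31.2 in P30 cells and 24.3 in CEBPA cells. Its log2 difference was 0.07 in P30 vs CTR and -0.27 in CEBPA vs CTR. IRF7, a factor that activates interferon genes and is itself induced by interferon, reached 9.11 FPKM in CTR cells, 8.69 in P30 cells and 6.36 in CEBPA cells. Both factors were thus lowest in CEBPA cells, by less than 2-fold, and IRF7 differed by -0.46 on the log2 scale in CEBPA vs CTR and by -0.06 in P30 vs CTR.

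IFI6, a membrane protein with antiapoptotic and antiviral activity, was the member with the largest negative difference. It measured 25.6 FPKM in CTR cells, 20.4 in P30 cells and 9.62 in CEBPA cells, so that CTR was 2.67 times CEBPA, with a log2 difference of -1.33. Of the 13673 genes in CEBPA vs CTR, 410 were as low or lower. Against P30 the log2 difference was -1.01, at the edge of the 2-fold limit, and after centring on the median of all genes it was -0.97.

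ISG15, a ubiquitin-like protein that is conjugated to other proteins and also secreted, showed the same order of CEBPA below the other groups. It stood at 15.9 FPKM in CTR cells, 17.0 in P30 cells and 8.42 in CEBPA cells. The log2 difference of CEBPA was -0.84 against CTR and -0.93 against P30, both just short of 2-fold on this scale. With a pseudocount of 0.1 the latter passed it. The log2 difference of P30 vs CTR was 0.09.

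IFITM1, a membrane protein that restricts the entry of viruses into cells, reached 466 FPKM in CTR cells, 560 in P30 cells and 338 in CEBPA cells. Its log2 difference was 0.26 in P30 vs CTR, and that of CEBPA was -0.46 against CTR and -0.73 against P30, none of them past 2-fold. IFITM1 remained the most abundant member in every group, in place 150 of 17023 symbols in P30 and 227 of 17024 in CEBPA. Of its relatives, IFITM3 followed the same order with 44.9 FPKM in CTR cells, 48.7 in P30 cells and 22.8 in CEBPA cells, and its difference of -1.06 in CEBPA vs P30 was past 2-fold.

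IFI35, a leucine zipper protein that binds the interferon-induced protein NMI, was the only member over 5 FPKM that was highest in CEBPA cells. It measured 25.4 FPKM in CTR cells, 22.1 in P30 cells and 36.9 in CEBPA cells, with log2 differences of 0.52 against CTR and 0.71 against P30, and of -0.19 for P30 vs CTR. NMI had 27.0, 26.4 and 33.1 FPKM in the same order of groups, a log2 difference of 0.28 in CEBPA vs CTR.

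The IFIT proteins carry tetratricopeptide repeats and act in part by binding foreign RNA. IFIT1 stood at 0.225 FPKM in CTR cells, 0.109 in P30 cells and 3.49 in CEBPA cells. It was the only member more than 2-fold higher in CEBPA, with a log2 difference of 1.87 against CTR and 2.02 against P30, and its plain FPKM ratio to CTR was 15.5. Of the 13673 genes in CEBPA vs CTR, 650 were as high or higher. Because CTR and P30 were far below 1 FPKM, the size of the difference depends on the pseudocount, and with 0.1 it was 3.46 against CTR and 4.10 against P30.

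IFIT2, with 0.0654 FPKM in CTR cells, 0.191 in P30 cells and 0.432 in CEBPA cells, stayed under 1 FPKM in every group and was not compared further. IFIT3, whose protein binds IFIT1, reached 0.520 FPKM in CTR cells, 1.24 in P30 cells and 1.09 in CEBPA cells. It was the only IFIT gene that was higher in P30 than in CEBPA, and its log2 difference of 0.56 in P30 vs CTR was the largest of the members there. With a pseudocount of 0.1 this value was 1.11 and past 2-fold. The 3 neighbouring genes thus differed in their order of groups at low FPKM.

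In CEBPA vs CTR, 8 of the 9 members could be compared. IFIT1 was at least 2-fold higher, as were 14.0% of all genes compared, and IFI6 was at least 2-fold lower, as were 6.92% of all genes. These counts of 1 in 8 lie near the background of a comparison in which many genes differed. IFIT1 and IFIT3 passed the filter through CEBPA alone and so had to be higher there. A lower value can stand for fewer cells that express a gene or for less RNA per cell, which cannot be told apart in bulk RNA. The median difference of the 8 members was -0.37, against -0.01 for all genes, with 5 members lower and 3 higher.

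In P30 vs CTR, 7 members could be compared, and IFIT1 and IFIT2 had no row in that table. No member was 2-fold higher, a mark passed by 1.02% of all genes, and none was 2-fold lower, a mark passed by 0.613% of all genes. The differences ran from -0.32 for IFI6 to 0.56 for IFIT3, with a median of 0.07 against 0.02 for all genes. The central 90% of all genes lay between -0.43 and 0.42, and IFIT3 alone was outside it, with 363 of 12395 genes as high or higher. IFIT3 passed the filter through P30 alone.

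CEBPA vs P30 uses the same CEBPA libraries as CEBPA vs CTR, and its values are given as its own. IFIT1 was at least 2-fold higher, as were 13.1% of all genes, and IFI6 was at least 2-fold lower, as were 5.79% of all genes. The median of the 8 members compared was -0.37, against -0.04 for all genes, and 6 of the 8 were lower in CEBPA. IFIT1 passed the filter through CEBPA alone here too, and drops out with a filter at 5 FPKM.

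**Figure D3:**
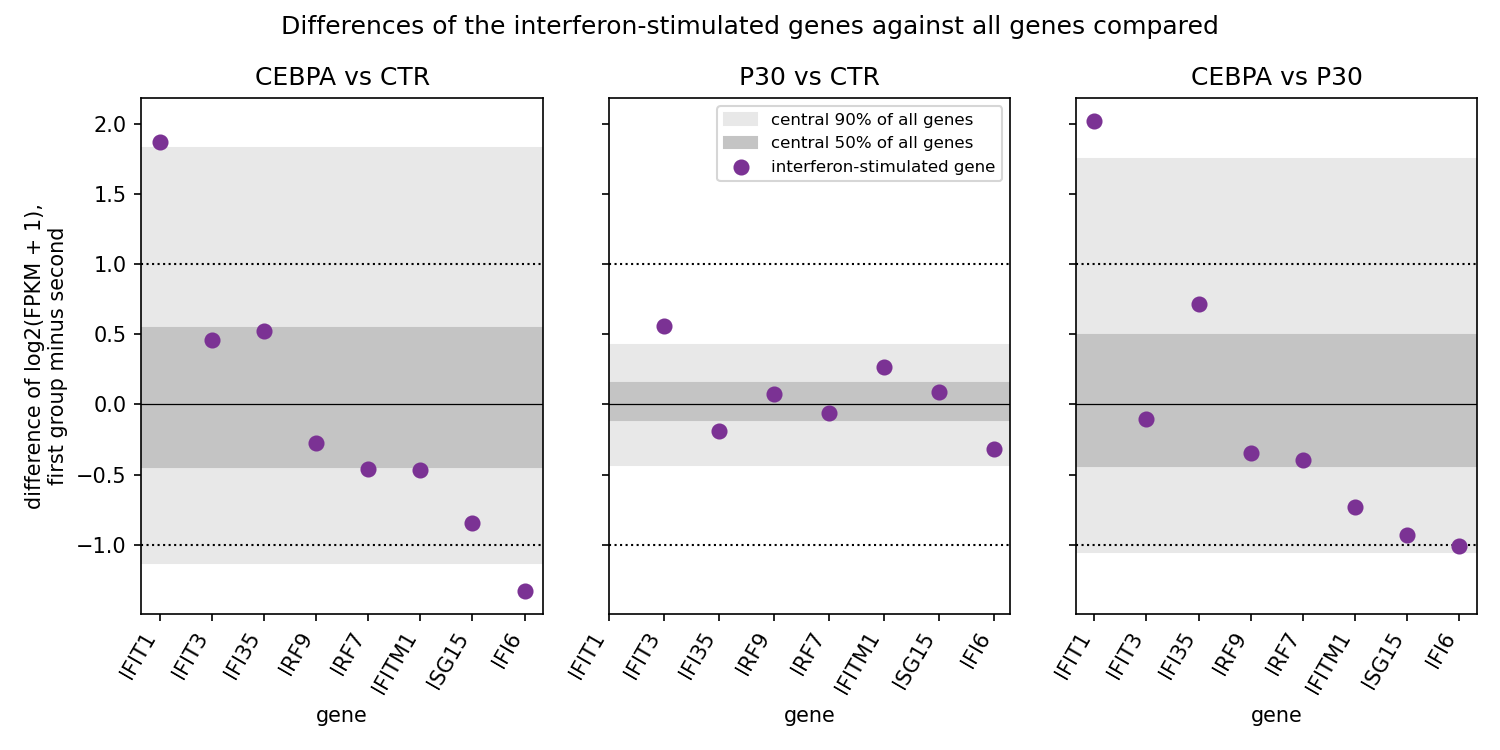
Differences of log2(FPKM + 1) for 8 members in the 3 comparisons (IFIT2 was under 1 FPKM, and IFIT1 has no point in P30 vs CTR), over bands that hold the central 50% and 90% of all genes, with dotted lines at 2-fold. IFIT1 at 1.87 and IFI6 at -1.33 lie outside the 90% band in CEBPA vs CTR, and IFIT3 at 0.56 lies outside it in P30 vs CTR.

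The remainder of the pathway was followed in gene lists ordered by role. Without the members, 83 of its 147 genes could be compared in CEBPA vs CTR, of which 19 were higher and 8 lower by 2-fold or more (14.0% and 6.92% of all genes), with a median of 0.23. Of the 19, 10 passed the filter through CEBPA alone, and with only the symbols found in all 3 tables the number higher was 12 and the median turned to -0.051. In P30 vs CTR 1 of 71 was higher and 0 were lower (1.02% and 0.613% of all genes), with a median of 0.08. Of 21 interferon genes only IFNL1, a type III interferon, had a row. It was listed at 0 in CTR, at 0.0196 FPKM in P30 and at 2.12 FPKM in CEBPA, and the other 20 were not analysed here. Of 6 receptor genes 3 had a row, and all 3 were higher in CEBPA than in CTR. IFNGR1, the ligand-binding chain of the interferon-gamma receptor, measured 16.8 FPKM in CTR cells, 17.8 in P30 cells and 35.5 in CEBPA cells, a log2 difference of 1.04 in CEBPA vs CTR. IFNGR2 and IFNAR1 differed by 0.53 and 0.48, short of 2-fold.

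Among the signal transducers, STAT2, which binds the member IRF9, was at 27.2 FPKM in CTR and at 28.7 in P30, and its log2 difference in CEBPA vs CTR was -0.12. The receptor kinases JAK1 and TYK2 had log2 differences of -0.23 and -0.36 in CEBPA vs CTR, and STAT3 had 0.45. The kinase gene JAK2 reached 9.42 FPKM in CTR cells, 12.1 in P30 cells and 4.80 in CEBPA cells. IRF9 and STAT2 thus both had small negative differences in CEBPA vs CTR.

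Of 9 other IRF-related genes, 6 could be compared in CEBPA vs CTR. IRF2, with 7.45 FPKM in CTR cells, 9.51 in P30 cells and 17.2 in CEBPA cells, was 2-fold higher, and IRF1, an interferon-induced factor, had 6.55, 7.88 and 12.5 FPKM. IRF3, which acts with IRF7 in the induction of interferon, had 65.9 FPKM in both CTR and P30 cells against 37.2 in CEBPA, a log2 difference of -0.81. IRF3 and IRF7 were thus both lower in CEBPA, and IRF1 and IRF2 both higher.

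Among 18 sensors and adaptors, 13 could be compared in CEBPA vs CTR. Of these, 3 were 2-fold higher and 1 was 2-fold lower (14.0% and 6.92% of all genes). IFI16, a nuclear DNA sensor, went from 1.34 FPKM in CTR and 0.749 in P30 to 11.0 in CEBPA. TLR8 and TLR7, endosomal receptors for RNA, had 1.96 and 1.07 FPKM in CEBPA, against 0.0265 and 0.00877 in CTR. TLR9, the endosomal receptor for DNA, was lower in CEBPA, at 18.7 FPKM against 37.7 in CTR. Its log2(FPKM + 1) difference of -0.98 was just short of 2-fold, while the plain FPKM ratio was 2.02. TMEM173, which encodes the adaptor STING, measured 71.0 FPKM in CTR cells, 71.1 in P30 cells and 32.2 in CEBPA cells. TLR7 and TLR8 passed the filter through CEBPA alone. The list had a median of 0.46 in CEBPA vs CTR, and of 0.14 with only the symbols in all 3 tables, where IFI16 alone was 2-fold higher.

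Of 6 genes of ISG15 conjugation and removal, UBE2L6, HERC5, HERC6, ARIH1 and USP18 had a row. UBE2L6 stood at 33.1 FPKM in CTR cells, 28.7 in P30 cells and 24.9 in CEBPA cells. HERC6 was under 1 FPKM in every group, and HERC5 was listed at 0 in CTR, at 0.0127 FPKM in P30 and at 0.276 FPKM in CEBPA. ARIH1 was highest in CEBPA, with a log2 difference of 0.59 against CTR. USP18 had 1.72, 1.51 and 1.44 FPKM. None of the 3 genes of this list that could be compared was past 2-fold in any comparison.

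Of the 8 inhibitors of cytokine signaling, CISH and SOCS1 were 2-fold lower in CEBPA vs CTR, as were 6.92% of all genes. CISH, an inhibitor induced by STAT5, reached 35.9 FPKM in CTR cells, 34.2 in P30 cells and 9.55 in CEBPA cells, and SOCS1, an inhibitor of JAK kinases that interferon induces, had 7.47, 7.07 and 1.58 FPKM. Their log2 differences were -1.81 and -1.71, and 0 of the 8 genes were 2-fold higher, against 14.0% of all genes. PTPN1 and PIAS1 had positive differences of 0.50 and 0.41, and the median of the list for CEBPA was -0.38 against CTR and -0.09 against P30. In CEBPA vs P30, 3 of the 8 genes were 2-fold lower, as were 5.79% of all genes. These were CISH, SOCS1 and PTPN6, the last with 5.47 FPKM in CTR cells, 7.09 in P30 cells and 2.38 in CEBPA cells. In P30 vs CTR the largest difference was that of SOCS3, from 13.4 to 7.61 FPKM, or -0.74.

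The widest differences of these lists were found among 54 other antiviral interferon-stimulated genes, of which 41 could be compared in CEBPA vs CTR. Of these, 11 were higher and 5 lower by 2-fold or more, and the median was 0.08, beside the 14.0% and 6.92% of all genes. Of the 11, 6 passed the filter through CEBPA alone, and with only the symbols in all 3 tables the number higher was 7 and the median was -0.095. CXCL10, a chemokine, measured 0.0280 FPKM in CTR cells, 0.0541 in P30 cells and 84.4 in CEBPA cells. OAS1, an oligoadenylate synthetase, had 0.0186, 0.0901 and 42.2 FPKM, and GBP1, a guanylate-binding protein, had 0.0625, 0.0665 and 17.4 FPKM. On the other side, IFI27 went from 15.4 FPKM in CTR and 19.4 in P30 to 2.35 in CEBPA, and CMPK2, which lies next to the antiviral gene RSAD2 in the genome, went from 20.0 and 26.5 to 3.31. LGALS3BP had 6.79, 4.17 and 0.751 FPKM. The genes of this list thus lay on both sides in CEBPA, as the 9 members did.

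In P30 vs CTR, 35 genes of that list could be compared, and GBP2 alone was past 2-fold. Of all genes there, 1.02% were 2-fold higher and 0.613% lower. GBP2 stood at 1.82 FPKM in CTR cells, 13.3 in P30 cells and 28.9 in CEBPA cells, a log2 difference of 2.34 in P30 vs CTR. The median of the 35 genes was 0.05, and -0.038 with a filter at 5 FPKM. BST2, which tethers virus particles to the cell surface, reached 186 FPKM in CTR cells, 135 in P30 cells and 97.3 in CEBPA cells.

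The ISRE was also counted in the promoters of these other antiviral genes. Of the genes with a promoter in the table, 5 of 9 that were 2-fold higher in CEBPA vs CTR held it, as did 2 of 4 that were 2-fold lower and 14 of 22 in between. A gene was counted if any of its promoters held the motif, whereas the 3.57% of all promoters was counted by promoter. These genes were listed as interferon-stimulated, so a high share in each group was likely from that choice alone. The motif was thus present on both sides, as in the members IFIT1 and IFI6.

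**Figure D4:**
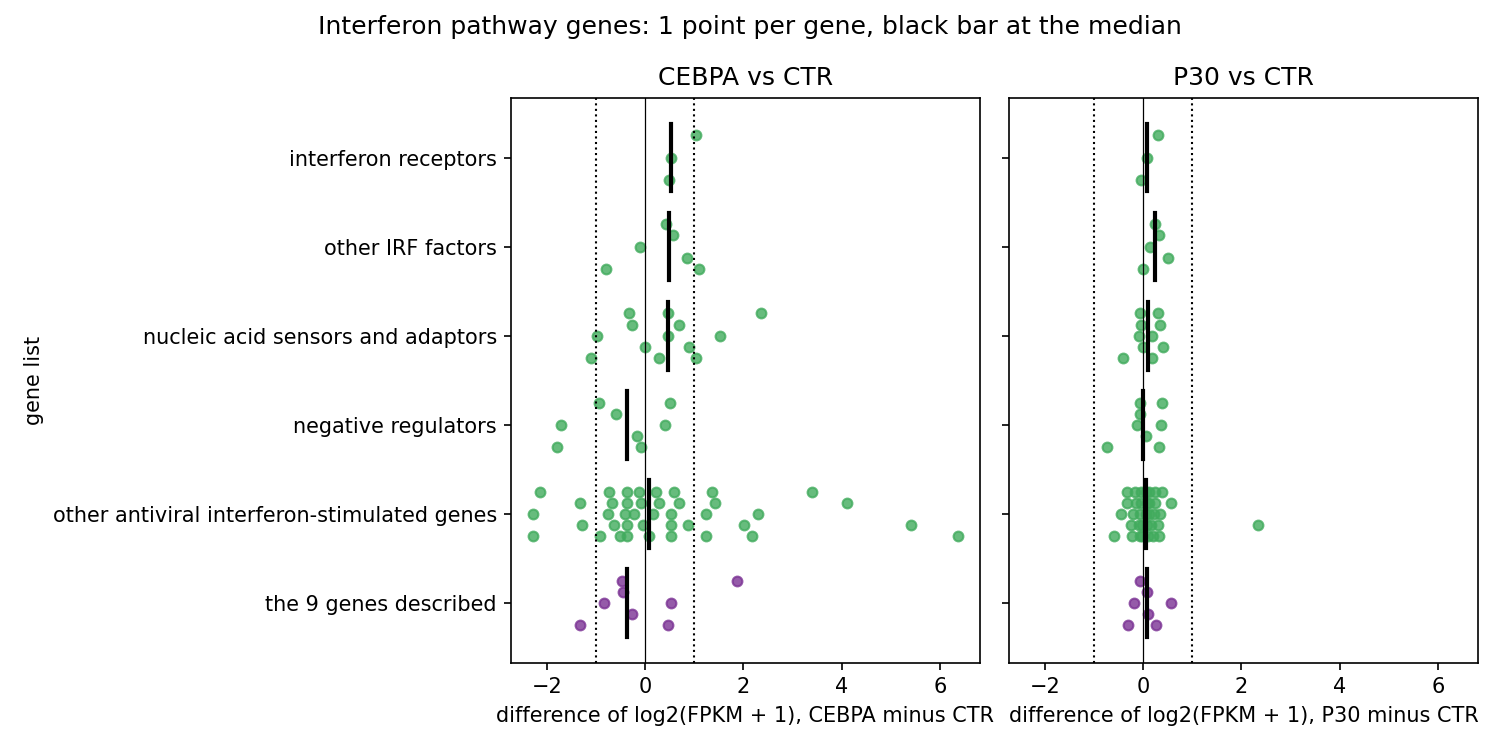
Differences of log2(FPKM + 1) by gene list in CEBPA vs CTR and P30 vs CTR, on 1 scale, with 1 point for each gene compared, a black bar at the median and dotted lines at 2-fold. In CEBPA vs CTR the other antiviral genes spread from -2.30 to 6.38 around a median of 0.08 (-0.095 with only the symbols in all 3 tables), and in P30 vs CTR only GBP2, at 2.34, is past 2-fold.

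The label of the cells was checked by marker genes. Of 10 erythroid K562 markers 8 had a row, and all 8 exceeded 1 FPKM in every group, with a summed level of 1853 FPKM in CTR, against 1352 in P30 and 767 in CEBPA, and 6 of them were 2-fold lower in CEBPA vs CTR. Markers of monocytes and granulocytes summed to 557, 665 and 10628 FPKM over the 7 of 10 with a row, and 4 of these were 2-fold higher in CEBPA vs CTR, LYZ, CSF3R, S100A8 and S100A9. S100A8, S100A9 and LYZ made up most of the sum in CEBPA, while CD68 was at 505 FPKM in CTR and 430 in CEBPA. In P30 vs CTR S100A8, S100A9 and ITGAM were 2-fold higher, ITGAM with 2.59 FPKM in CTR cells, 14.3 in P30 cells and 2.43 in CEBPA cells, and HBG1 of the erythroid markers was 2-fold lower. Markers of lymphoid and other cells summed to 47.4, 62.5 and 32.9 FPKM over 9 of 16, and CLEC4C, a marker of plasmacytoid dendritic cells, was listed at 0 in CTR and P30, as was GNLY, a marker of natural killer cells, in P30. Several of these markers differed between the same groups as the members, but not all of them did. In P30 vs CTR, some markers passed 2-fold where no member did on the main scale. The part of the markers in the differences of the members was not tested. CEBPA itself was not analysed here, so the induction of the transgene was not checked.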

How the data were processed

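Per the labels, 6 samples of K562 cells were sequenced, 2 per group, and groups were taken from the sample titles. According to the methods, libraries were strand-specific and paired-end, the replicates were sequenced on instruments with different read lengths, and reads were aligned to hg19 with TopHat, assembled with Cufflinks and quantified with Cuffdiff. The submitters' processing notes name CASAVA 1.4, TopHat2 2.0 and Cuffdiff. The authors deposited FPKM, 1 pooled value per gene and group, in 3 tables of 16938 (CTR and CEBPA), 16843 (CEBPA and P30) and 14956 rows (CTR and P30). The library normalization and the rule that chose the rows are not given in the sources used here.

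Differences of log2(FPKM + 1) were taken within each table for genes with over 1 FPKM in at least 1 group, which left 13673, 13569 and 12395 genes. For want of replicates no test was run. The members and lists were chosen with earlier results of these data known. Named were all members and genes picked, for each list and pair of groups, from up to 3 with the largest difference in each direction. Not every gene that this rule picks is named. NMI, STAT2, IRF1, HERC5, HERC6 and USP18 were also named for their link to a member, LIPA for its overlap, the blood cell markers, and CLEC4C and GNLY as markers listed at 0, after their values were seen. Of these, STAT2, IRF1 and USP18 are picked by the rule too. The calculation was tested on simulated data. Python 3.11.15, numpy 2.4.6, pandas 2.3.3 and matplotlib 3.10.9 were used. A result for a pathway gene is not reported here, and the counts of the lists include all genes with a row.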

Additional observations from a re-analysis of the deposited data

How the results depend on the processing

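No paired analysis was possible because both replicates of a group are merged into a single FPKM, and for the same reason no replicate could be left out. A log2 difference counted as moved from a shift of 0.20, the spread (scaled median absolute deviation) of all genes in P30 vs CTR, and a count from a shift of more than 1.5 times. Of 131 recomputed differences of the members, 127 stayed within this limit, 4 moved, all with a pseudocount of 0.1 and for IFIT1 or IFIT3, and 0 changed sign. The filters, the restriction to symbols in all 3 tables and the summing of rows cannot alter the difference of a member that is kept. Centring shifts all genes of a comparison alike, by at most 0.04, which is below the limit. Only the pseudocount could therefore move a member, so the 127 are no measure of robustness. IFIT1 and IFIT3 drop out with a filter at 5 FPKM, and IFIT1 when only symbols in all 3 tables are kept, since it has no row in 1 of them.

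Under both of these settings 0 members were 2-fold higher in CEBPA, whether against CTR or P30. With a pseudocount of 0.1, 1 member was 2-fold higher in P30 vs CTR and 2 were 2-fold lower in CEBPA vs P30, and after centring 0 were lower there. From a 1.5-fold difference, 2 members were lower in CEBPA vs CTR, and 2 were higher and 3 lower in CEBPA vs P30. For the other pathway genes together, the median in CEBPA vs CTR was 0.23, and -0.051 when only symbols in all 3 tables were kept, a setting that leaves out genes near 0 in CTR and P30 and that gave 12 in place of 19 genes 2-fold higher in CEBPA vs CTR and 10 in place of 17 in CEBPA vs P30. With 1.5-fold, 19 were lower in CEBPA vs CTR and 2 were lower in P30 vs CTR, and with a pseudocount of 0.1, 2 were higher in P30 vs CTR. Over all genes, a filter at 5 FPKM gave 1216 higher in CEBPA vs CTR, 81 in P30 vs CTR and 1080 in CEBPA vs P30. This filter also leaves fewer genes to compare, so these counts do not show whether the share changed. A pseudocount of 0.1 gave 200 higher and 184 lower in P30 vs CTR, of 12395 genes. With 1.5-fold, 3275 were higher and 2539 lower in CEBPA vs CTR, with 334 and 326 for P30 vs CTR, and 3025 and 2417 for CEBPA vs P30. These are of 13673, 12395 and 13569 genes. The causes were not tested.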

Other observations

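Antigen presentation on MHC class I, which interferon raises in many cells, could be followed in only 2 of 14 genes with a row. NLRC5, the transactivator of MHC class I genes, stood at 0.222 FPKM in CTR cells, 0.724 in P30 cells and 31.3 in CEBPA cells. B2M, the light chain of MHC class I, had 989, 1078 and 1263 FPKM, a log2 difference of 0.35 in CEBPA vs CTR.

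The genes with the pattern nearest to the members past 2-fold were sought among all genes of similar mean level, by Euclidean distance over the log2 differences of CEBPA and of P30 from CTR. Here the P30 values were joined by symbol from the table of CEBPA and P30, for genes that exceeded 1 FPKM in any group, so that IFIT1, which has no row in the table of CTR and P30, could be included. This rests on 3 pooled values per gene, and many genes are candidates, so that close matches are easily found. Nearest to IFI6 were MARVELD1, NUDT8 and P4HA2, at distances of 0.025 to 0.055 among 4890 genes. Nearest to IFIT1 were DTNA, ROCK1P1 and AC007879.5, at 0.033 to 0.085 among 3135 genes, all under 0.4 FPKM in CTR. None of these 6 is on the interferon lists used here.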
